A study of Mus musculus with 4 samples.

Results

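The genes described here are 10 genes of the Leydig cell, the steroid-producing cell between the seminiferous tubules of the testis: Star, Cyp11a1, Cyp17a1, Hsd3b1, Hsd3b6, Hsd17b3, Srd5a1, Insl3, Lhcgr and Nr5a1. They were taken by symbol from the 31053 genes listed in the files, and all 10 were found with 1 identifier each. The question was which steps of androgen synthesis were kept and which were lost when mouse testis was cultured.

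In the Leydig cell, luteinizing hormone acts through its receptor Lhcgr and cAMP, and the nuclear receptor Nr5a1 drives transcription of the steroid enzymes. Star moves cholesterol into the mitochondrion, where Cyp11a1 cuts its side chain to give pregnenolone. The 3β-hydroxysteroid dehydrogenases Hsd3b1 and Hsd3b6 turn this into progesterone, Cyp17a1 makes androstenedione, Hsd17b3 reduces that to testosterone, and Srd5a1 reduces testosterone further. Insl3 is a peptide hormone that Leydig cells secrete. The postnatal testis holds a fetal generation of Leydig cells and an adult generation that replaces it, and Hsd3b6 is known as a gene of the adult generation.

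Each of the 4 groups was 1 single-cell RNA library, so no difference below has a replicate check and none was tested. All mice were C57BL/6 and carried the Acr-Gfp transgene. Testes taken at 7 days postpartum (dpp) were cut into pieces and cultured for 2 days or 7 days on agarose, in contact with α-MEM that held AlbuMAX, under a PDMS ceiling. The uncultured testes were taken at 9 dpp and at 14 dpp, which match the cultures in total age, and give a 2-day pair and a 7-day pair. The library preparation text in the labels also speaks of female gonads and of cells derived from embryonic stem cells, while the tissue field says testis.

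On GRCm38, with GENCODE M21, Star lies at chr8:25806555-25815982, Cyp11a1 at chr9:58006411-58027023 and Insl3 at chr8:71689214-71690575, all on the plus strand. On the minus strand lie Cyp17a1 at chr19:46667165-46673172, Hsd17b3 at chr13:64058266-64089230, Srd5a1 at chr13:69573449-69611442, Lhcgr at chr17:88716481-88791990 and Nr5a1 at chr2:38692656-38714542, as do the neighbours Hsd3b1 and Hsd3b6 on chromosome 3. Cyp11a1 overlaps Gm17322 on the same strand.

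The libraries held from 5149 to 7710 deposited barcodes and from 34491701 to 60829941 counted molecules (unique molecular identifiers, UMIs). Filtering and removal of doublet calls left 5150 cells at 9 dpp, 6195 at 14 dpp, 6877 from the 2-day and 4816 from the 7-day culture, 23038 in all. Each pair of libraries shared from 29 to 75 kept cell barcodes. Cells were put into classes by the UMIs of marker genes, none of which was among the 10 genes. A level is given as CPM, the UMIs of a gene per 1000000 UMIs of the cells summed. A transcript gives a UMI at its 3′ end whatever its length, so CPM needs no scaling by length. Reads lost where genes overlap or resemble each other can still lower the CPM of Insl3, Cyp11a1, Hsd3b1 and Hsd3b6, which limits their order against other genes, and how they were counted is not given in the sources used here. Intervals are exact, at 95%, and cover counting error only.

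There were 104 Leydig-like cells at 9 dpp, 168 at 14 dpp, 92 after 2 days of culture and 101 after 7 days. Their share was 1.34% of kept cells after 2 days of culture (1.08% to 1.64%) and 2.02% at 9 dpp (1.65% to 2.44%). In the 7-day culture it was 2.10% (1.71% to 2.54%), against 2.71% at 14 dpp (2.32% to 3.15%). Leydig-like cells were thus present in every library and made up a lower share in both cultures, with intervals that overlapped for the 7-day pair. By Leiden cluster the intervals overlapped for the 2-day pair too, at 1.60% (1.32% to 1.92%) against 2.19% (1.81% to 2.63%). Their median depth was 10797.5 UMIs at 9 dpp, 11199.5 at 14 dpp, 6007 after 2 days of culture and 8358 after 7 days. From 32 to 58 cells a library lay near the limit of the class, the most after 2 days of culture. A Cyp11a1 UMI was found in 82 of the Leydig-like cells at 9 dpp, 128 at 14 dpp, 76 after 2 days of culture and 70 after 7 days. The class thus included cells in which Cyp11a1 went undetected and, as given below, left out some cells with it. The 14 Leydig markers summed to between 7601 and 11411 CPM in these cells, although Cyp11b1, Mc2r and Ces1d were at or near 0. The 11 stromal or myoid markers summed to 2516 CPM at 9 dpp, 3002 CPM at 14 dpp, 1887 CPM after 2 days of culture and 1953 CPM after 7 days. Sertoli markers summed to between 770 and 1645 CPM there, and the 16 germ cell markers to between 68.4 and 259 CPM. Of the Sertoli markers, Defb19 was at 349 to 1305 CPM and Aard at 257 to 465 CPM, while Fshr was at 0 in every library. Cldn11, Sox9, Rhox8 and Mro were also present, and highest after 7 days of culture. The 10 macrophage markers summed to at most 6.12 CPM except at 14 dpp, where the sum was 432 CPM and 9 of the 168 cells lay in a macrophage cluster. The part of stromal, Sertoli and germ cell RNA in the results below was not tested.

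In the Leydig-like cells of the 2-day culture, 6 of the 10 genes were at least 2-fold lower than at 9 dpp: Cyp17a1, Hsd3b1, Srd5a1, Insl3, Lhcgr and Nr5a1. Of 8074 genes with enough UMIs, 12.3% were at least 2-fold lower in this comparison and 5.91% at least 2-fold higher. Only Hsd3b6 was higher, on 7 and 2 UMIs, Star and Cyp11a1 were within 2-fold, and Hsd17b3 had too few UMIs for a ratio. In the 7-day culture, 6 genes were at least 2-fold lower than at 14 dpp: Star, Cyp17a1, Hsd3b6, Hsd17b3, Srd5a1 and Insl3. Hsd17b3 had 35 UMIs in Leydig-like cells of all libraries, under the 50 asked of the genes behind the shares, and Hsd3b6 had 50 only through 14 dpp, where it was high. Of the other 8 genes, 4 were lower, where 7.88% of 8084 genes were lower and 6.38% higher. None of the 10 was higher, and Cyp11a1, Hsd3b1, Lhcgr and Nr5a1 were within 2-fold. Cyp17a1, Srd5a1 and Insl3 were therefore lower in both pairs, and Cyp11a1 was lower in neither. The median log2 ratio of the genes was −1.43 for the 2-day pair, against −0.11 over all genes, and −2.49 for the 7-day pair, against 0.03. Without Hsd17b3 and Hsd3b6 these medians were −1.51 and −1.10, and the counts were 6 and 4 lower and 0 higher in either pair. In these cells 9 of the 10 genes had at least 50 UMIs over the 4 libraries, all but Hsd17b3, and Hsd3b6 had them only through 14 dpp. Without the cells outside the Leydig cluster, among them the 9 in the macrophage cluster, the counts were again 6 lower in each pair, and 1 and 0 higher.

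**Figure D1:**
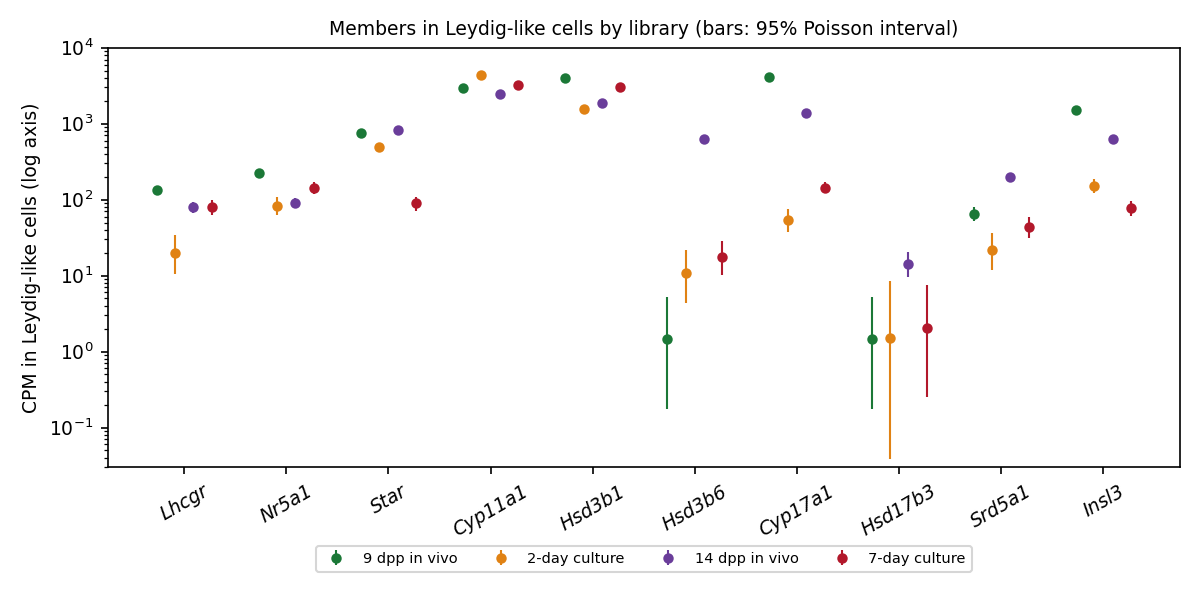
CPM of each gene in Leydig-like cells on a log axis, 1 point per library, with bars for the 95% Poisson interval of the count. Cyp11a1 stays between 2453 and 4347 CPM, while Cyp17a1 runs from 53.6 CPM after 2 days of culture to 4081 CPM at 9 dpp.

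**Figure D2:**
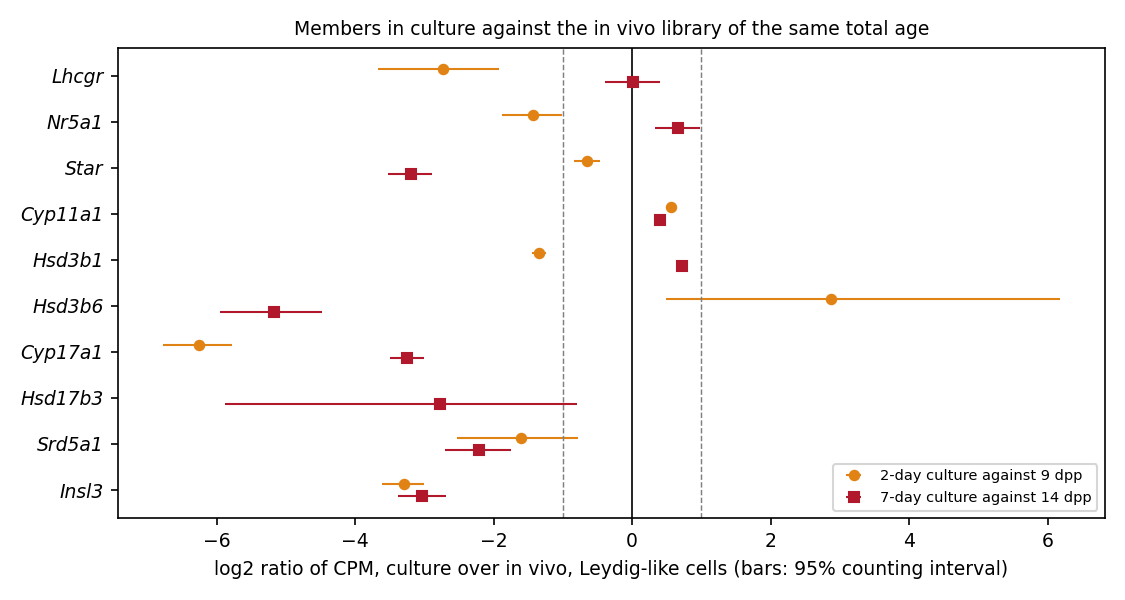
Log2 ratio of CPM in Leydig-like cells, culture over the in vivo library of the same total age, for the 2-day pair (circles) and the 7-day pair (squares); bars are 95% counting intervals and dashed lines mark 2-fold. Cyp17a1 (−6.25 and −3.25) and Insl3 (−3.30 and −3.03) lie far to the left in both pairs, and Hsd17b3 has no point for the 2-day pair.

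The gene of the first step, cholesterol entry, was less than 2-fold below its in vivo level in the younger culture and far below it in the older. Star stood at 764 CPM at 9 dpp, 818 CPM at 14 dpp, 487 CPM after 2 days of culture and 89.1 CPM after 7 days of culture. The in vivo libraries were close together, the 2-day culture was somewhat lower, and the 7-day culture was apart from all others. The log2 ratio was −0.65 (−0.84 to −0.47) for the 2-day pair and −3.20 (−3.53 to −2.89) for the 7-day pair, which is 9.18-fold lower. Among thinned cells with Cyp11a1, as set out below for Cyp17a1, Star was found in 50 of 64 at 9 dpp, 78 of 93 at 14 dpp, 33 of 64 after 2 days of culture and 15 of 51 after 7 days.

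Star was not a gene of Leydig-like cells alone. Only 37.6% of its UMIs after 2 days of culture and 34.1% after 7 days of culture came from those cells, against 76.3% at 9 dpp and 83.0% at 14 dpp. In Sertoli-like cells, the nurse cells of the tubule, Star was at 35.0 CPM after 2 days of culture, 11.9 CPM after 7 days of culture, 13.9 CPM at 9 dpp and 11.8 CPM at 14 dpp, with 1.62 to 4.70 CPM in germ-like cells. The 2-day culture stood above the other libraries there, at a log2 ratio of 1.34 (1.06 to 1.61) over 9 dpp. It stood above 9 dpp in stromal or myoid-like cells as well, at 10.5 CPM against 1.49 CPM, or 2.81 (1.97 to 3.77) on the log2 scale. In cells of no class, which held 163 of its UMIs in that culture, Star was at 48.4 CPM against 4.81 CPM. There Cyp11a1 was at 262 CPM against 11.3 CPM, Hsd3b1 at 28.8 CPM against 9.61 CPM and Insl3 at 10.1 CPM against 19.3 CPM. How many of these cells were Leydig cells missed by the class limit was not tested. Sertoli-like cells had a median depth of 3195 UMIs after 2 days of culture and 14132 at 9 dpp. Over all kept cells Star was at 26.3 CPM after 2 days of culture and 23.8 CPM at 9 dpp.

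The gene of side-chain cleavage was kept at both culture times. Cyp11a1 was at 4347 CPM in the Leydig-like cells of the 2-day culture, 3236 CPM after 7 days of culture, 2948 CPM at 9 dpp and 2453 CPM at 14 dpp. Both cultures stood above both in vivo libraries, with log2 ratios of 0.56 (0.49 to 0.63) and 0.40 (0.34 to 0.46) in the younger and the older pair, less than 2-fold. Leydig-like cells held from 92.6% to 97.4% of the Cyp11a1 UMIs in 3 libraries but 69.0% after 2 days of culture. In that library 882 of the 4116 Cyp11a1 UMIs lay in cells of no class. Another 249 lay in stromal or myoid-like cells, 82.3% of them in 24 cells. The level was 24.8 CPM there, against 1.95 CPM at 9 dpp.

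The 3β-dehydrogenase step was split between its genes: Hsd3b1 was abundant in both cultures and Hsd3b6 was low in both. Hsd3b1 (chr3:98852194-98859794, minus strand) and Hsd3b6 (chr3:98805504-98814443, minus strand) lie 45.35 kb apart, start to start, on GRCm38. Their transcripts are 77.4% identical over the whole length and 66.6% over the last 300 bases, from which 3′ libraries read. How reads fitting both genes were counted is not given in the sources used here, and its part in the counts was not tested. At 9 dpp Hsd3b1 had 5828 UMIs and Hsd3b6 had 6 over all kept cells. The 250 bases upstream of the 2 starts are shown because these neighbours differed so much in use. They come from RefSeq, build GRCm38.p6, and were 49.3% identical. Capitals mark AGATAA, searched on both strands, or its reverse complement.
Hsd3b1, upstream of the start, chr3:98859795-98860044, minus strand: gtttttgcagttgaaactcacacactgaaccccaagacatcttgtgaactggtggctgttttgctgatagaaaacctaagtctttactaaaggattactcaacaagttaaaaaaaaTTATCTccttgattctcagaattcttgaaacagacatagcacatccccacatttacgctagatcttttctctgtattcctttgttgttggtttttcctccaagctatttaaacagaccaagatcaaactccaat
Hsd3b6, upstream of the start, chr3:98814444-98814693, minus strand: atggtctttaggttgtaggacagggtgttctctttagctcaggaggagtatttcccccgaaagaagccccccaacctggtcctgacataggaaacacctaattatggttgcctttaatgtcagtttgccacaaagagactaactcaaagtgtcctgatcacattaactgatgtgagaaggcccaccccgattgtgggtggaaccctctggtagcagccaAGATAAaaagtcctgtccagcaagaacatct

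Both windows held that motif, one that GATA factors bind, at −134 on the opposite strand for Hsd3b1 and at −31 for Hsd3b6, counted back from the start. Of 32851 upstream windows of this length, 9.99% held it. The other motif searched on both strands was AAGGNCA, which Nr5a1 binds. It was in 17.5% of these windows and in 0 of the 8 windows found for 7 of the 10 genes. No window was found for Star, Cyp17a1 or Nr5a1. Both Cyp11a1 windows, chr9:57997774-57998023 and chr9:58014702-58014951, lie away from its GENCODE start at 58006411. A count of 0 in so few windows does not set these genes apart from the 17.5%. A match describes the letters and is not a measured binding site.

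Hsd3b1 was at 4022 CPM at 9 dpp, 1875 CPM at 14 dpp, 1584 CPM after 2 days of culture and 3089 CPM after 7 days of culture. It was lower in the younger culture and higher in the older, with log2 ratios of −1.34 (−1.44 to −1.25) and 0.72 (0.65 to 0.79). The latter passed 2-fold with the stricter cell filter (1.05) and with cells chosen by the UMIs of the other genes (1.17). In level it was the second of the 10 genes in every library, and its interval overlapped that of the first, Cyp17a1 at 9 dpp and Cyp11a1 after 7 days of culture, in those 2 libraries.

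Hsd3b6 was at 634 CPM in the Leydig-like cells of 14 dpp, from 1344 UMIs. It was at 17.6 CPM after 7 days of culture, 10.7 CPM after 2 days of culture and 1.46 CPM at 9 dpp, from 17, 7 and 2 UMIs. A substantial level was found only at 14 dpp, and the 7-day culture of the same total age was 36.0-fold lower, or −5.17 (−5.95 to −4.49) on the log2 scale. The 2-day pair rested on 7 and 2 UMIs, with a log2 ratio of 2.88 (0.48 to 6.18). At 14 dpp, after each Leydig-like cell was thinned to 3000 UMIs, 39 of 165 cells had UMIs of both dehydrogenases, 29 of Hsd3b6 alone and 53 of Hsd3b1 alone. Of the 68 cells with Hsd3b6, 59 also had Insl3. Among all 165 cells, 117 had Insl3 and 92 had Hsd3b1.

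Cyp17a1, whose enzyme commits the steroid to the androgen path, was the gene furthest from its in vivo level for the 2-day pair. It was at 4081 CPM at 9 dpp and 1367 CPM at 14 dpp, against 53.6 CPM after 2 days of culture and 144 CPM after 7 days of culture. Both cultures lay below both in vivo libraries. The log2 ratios were −6.25 (−6.78 to −5.77), or 76.2-fold lower, for the 2-day pair and −3.25 (−3.50 to −3.00), or 9.49-fold lower, for the 7-day pair. Between the cultures the 7-day library was higher, by 1.43 (0.88 to 2.01), while in vivo the older library was lower, by −1.58 (−1.64 to −1.51).

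The low level of Cyp17a1 was also seen without any cell class. For every 100 UMIs of Cyp11a1 in the library there were 145 UMIs of Cyp17a1 at 9 dpp and 54.4 at 14 dpp, but 1.04 after 2 days of culture and 4.49 after 7 days of culture. Hsd3b1 gave 134 and 76.0 in vivo and 28.1 and 97.2 in the cultures, each in order of age. The ratio to the first enzyme of the path was lower in both cultures for Cyp17a1, while for Hsd3b1 the 7-day culture lay between the in vivo libraries.

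Cell by cell, Cyp17a1 went undetected in most cultured cells that carried Cyp11a1. Among Leydig-like cells with at least 3 Cyp11a1 UMIs after thinning, 63 of 64 had a Cyp17a1 UMI at 9 dpp (98.4%, 91.6% to 99.96%) and 77 of 93 at 14 dpp (82.8%, 73.6% to 89.8%). In the 2-day culture 7 of 64 such cells did (10.9%, 4.51% to 21.2%), and after 7 days of culture 14 of 51 (27.5%, 15.9% to 41.7%). Hsd3b1 was found in 61 of 64 such cells at 9 dpp, 77 of 93 at 14 dpp, 43 of 64 after 2 days of culture and 45 of 51 after 7 days of culture. The older culture thus lay between the in vivo libraries for Hsd3b1, and below both for Cyp17a1, with no overlap of intervals. Over all thinned Leydig-like cells Cyp17a1 was detected in 84.8%, 65.5%, 8.33% and 15.8% at 9 dpp, 14 dpp, the 2-day and the 7-day culture, and unthinned in 85.6%, 78.0%, 13.0% and 24.8%. In germ-like cells, which should lack it, the thinned share was at most 0.992%, and for the 10 genes at most 2.57% (Srd5a1 at 14 dpp), at a median depth of 3472 to 8724 UMIs. Thinning left out 8, 6, 5 and 3 Leydig-like cells of the 2-day culture, 7-day culture, 9 dpp and 14 dpp.

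**Figure D3:**
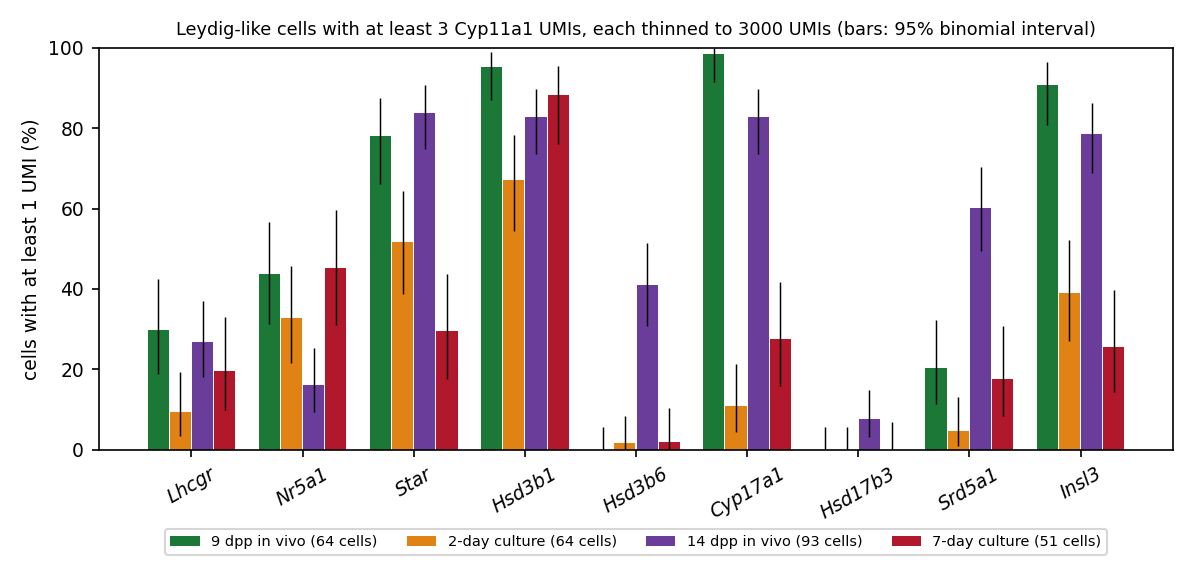
Share of cells with at least 1 UMI of each gene among Leydig-like cells that kept at least 3 Cyp11a1 UMIs after thinning to 3000 UMIs, with 95% binomial intervals. Cyp17a1 was found in 63 of 64 cells at 9 dpp and in 7 of 64 cells of the 2-day culture.

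**Figure D4:**
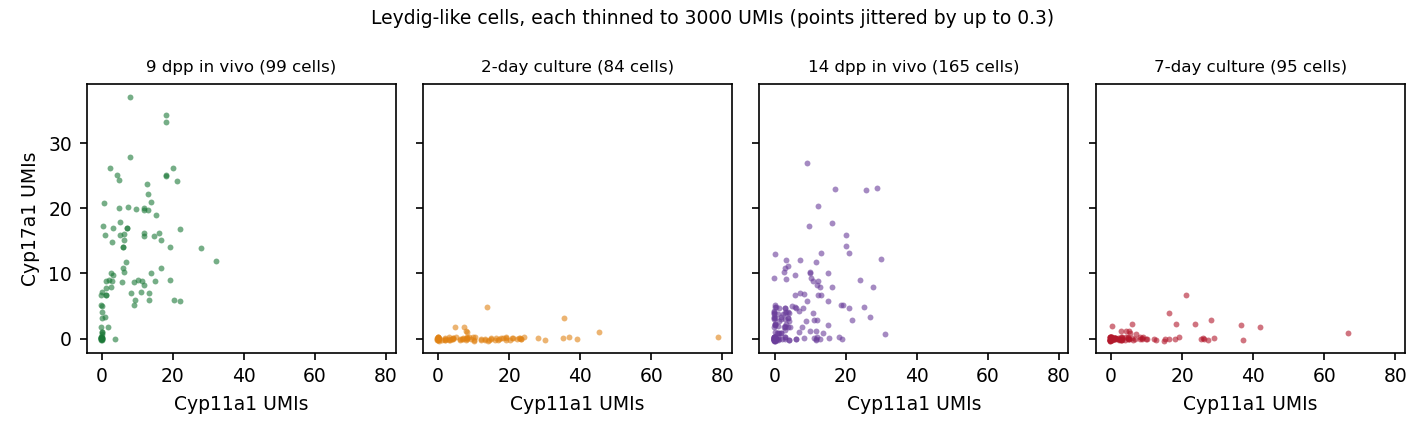
UMIs of Cyp11a1 (horizontal) and Cyp17a1 (vertical) in each Leydig-like cell after thinning to 3000 UMIs, 1 panel per library, with points jittered. In vivo, cells spread along both axes, up to 37 Cyp17a1 UMIs at 9 dpp and 27 at 14 dpp; in the cultures no cell exceeds 7 Cyp17a1 UMIs, while Cyp11a1 reaches 79 and 67.

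The last step to testosterone was hardly measured in Leydig-like cells. Hsd17b3 had 2 UMIs there at 9 dpp, 30 at 14 dpp (14.2 CPM), 1 after 2 days of culture and 2 after 7 days of culture. The 7-day pair gave a log2 ratio of −2.77 (−5.88 to −0.79), and for the 2-day pair both libraries were under the floor of 3 UMIs. Most Hsd17b3 UMIs, from 88.2% at 14 dpp to 98.3% after 7 days of culture, came from Sertoli-like cells. There it was at 135 CPM at 9 dpp, 25.1 CPM at 14 dpp, 28.2 CPM after 2 days of culture and 43.8 CPM after 7 days of culture, so that 9 dpp alone was high. The log2 ratio in Sertoli-like cells was −2.26 (−2.49 to −2.04) for the 2-day pair and 0.80 (0.57 to 1.03) for the 7-day pair.

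Srd5a1, the 5α-reductase, was lower in both cultures. In Leydig-like cells it was at 64.9 CPM at 9 dpp, 202 CPM at 14 dpp, 21.4 CPM after 2 days of culture and 43.5 CPM after 7 days of culture. The log2 ratios were −1.60 (−2.53 to −0.78) and −2.21 (−2.70 to −1.75). Only 10.5% to 48.0% of its UMIs lay in Leydig-like cells, and germ-like cells held it at 4.49 to 9.60 CPM. At 14 dpp 56 of 93 thinned cells with Cyp11a1 had a Srd5a1 UMI, against 9 of 51 after 7 days of culture.

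Insl3, the peptide hormone, was also lower in both cultures. It was at 1495 CPM at 9 dpp, 627 CPM at 14 dpp, 151 CPM after 2 days of culture and 76.7 CPM after 7 days of culture. Both cultures were below both in vivo libraries, with log2 ratios of −3.30 (−3.61 to −3.01) and −3.03 (−3.39 to −2.69), or 9.87-fold and 8.17-fold lower. Among the thinned cells with Cyp11a1, Insl3 was found in 58 of 64 at 9 dpp, 73 of 93 at 14 dpp, 25 of 64 after 2 days of culture and 13 of 51 after 7 days of culture. In the annotation Insl3 overlaps Jak3 on the same strand, and reads in the shared stretch may not have been counted.

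The receptor and the nuclear receptor were at least 2-fold lower in the younger culture and not in the older; the difference between the pairs was not tested. Lhcgr was at 133 CPM at 9 dpp, 79.3 CPM at 14 dpp, 19.9 CPM after 2 days of culture and 79.8 CPM after 7 days of culture. The 2-day culture stood alone, at a log2 ratio of −2.74 (−3.68 to −1.93), while the 7-day pair was level, at 0.01 (−0.40 to 0.41). Nr5a1 was at 223 CPM at 9 dpp, 90.6 CPM at 14 dpp, 82.6 CPM after 2 days of culture and 143 CPM after 7 days of culture, with log2 ratios of −1.43 (−1.87 to −1.01) and 0.66 (0.33 to 0.98). With cells weighted equally the former was −0.96, less than 2-fold. Most Nr5a1 UMIs, 51.0% to 69.9%, came from Sertoli-like cells, where it was at 53.9 to 95.1 CPM.

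**Figure D5:**
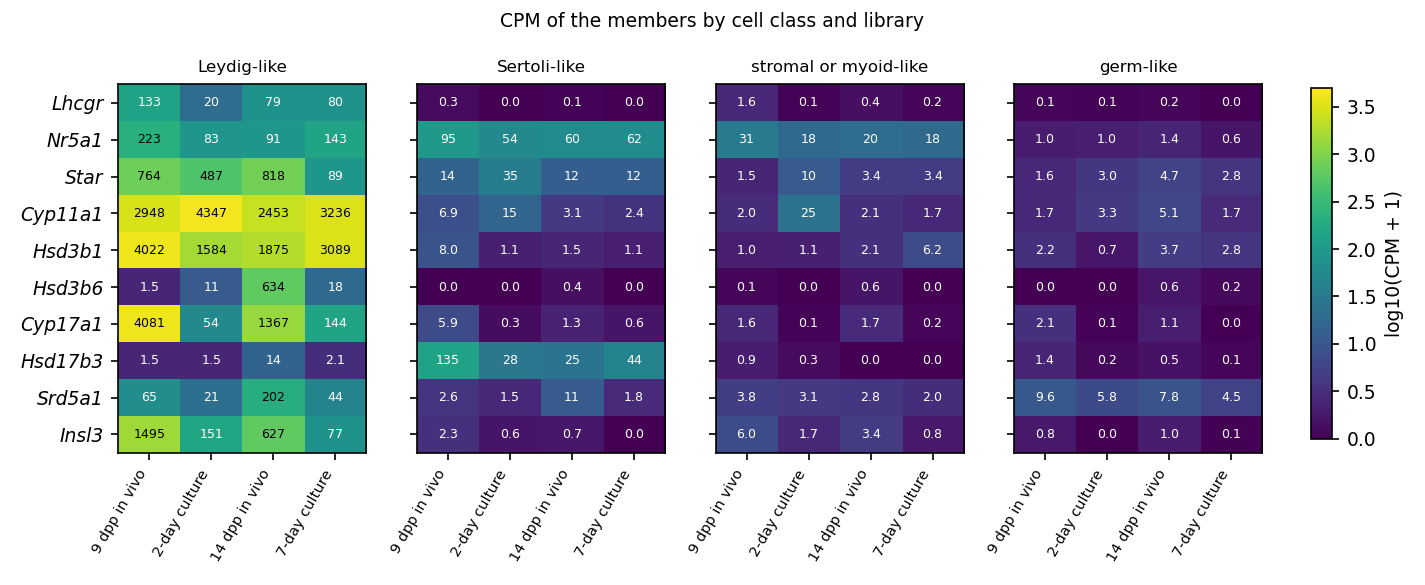
CPM of each gene by library in Leydig-like, Sertoli-like, stromal or myoid-like and germ-like cells; the colour is log10(CPM + 1) and each cell prints the CPM. Hsd17b3 and Nr5a1 stand out in Sertoli-like cells, with 135 CPM and 95.1 CPM at 9 dpp.

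The order of the libraries was not the same for all genes. For Cyp17a1 and Insl3 it ran 9 dpp, 14 dpp and then the cultures, with the 2-day culture last for Cyp17a1 and the 7-day culture last for Insl3. For Cyp11a1 it ran 2-day culture, 7-day culture, 9 dpp, 14 dpp. Neighbours whose intervals overlapped were the in vivo libraries for Star, 14 dpp and the 2-day culture for Nr5a1, 14 dpp and the 7-day culture for Lhcgr, the cultures for Hsd3b6, and the 2-day culture and 9 dpp for that gene. For Srd5a1 the 7-day culture overlapped both the 2-day culture and 9 dpp, and for Hsd17b3 all libraries but 14 dpp overlapped. With age in vivo, 4 genes were at least 2-fold lower at 14 dpp than at 9 dpp (background 4.4%) and 3 at least 2-fold higher (background 3.88%). The lower ones were Cyp17a1, Hsd3b1, Insl3 and Nr5a1, and the higher ones Hsd3b6, Hsd17b3 and Srd5a1, or Srd5a1 alone without the first 2, of which Hsd17b3 was under 50 UMIs and Hsd3b6 reached them only through 14 dpp. With time in culture, only Star was at least 2-fold lower (background 4.84%), at −2.45 (−2.81 to −2.10), and Lhcgr, Cyp17a1 and Srd5a1 were higher (background 8%). These comparisons share libraries with the pairs.

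Over all kept cells the share of Leydig-like cells and the level within them cannot be told apart. There 5 of the 10 genes were at least 2-fold lower for the 2-day pair, with a background of 9.29%: Cyp17a1, Hsd3b1, Hsd17b3, Insl3 and Lhcgr. Hsd3b6 was higher, from 7 and 6 UMIs, against a background of 7.27%. In the 7-day pair 5 were lower (background 6.78%), namely Star, Cyp17a1, Hsd3b6, Srd5a1 and Insl3, and 0 higher (background 7.41%). Without Hsd3b6, which reached 50 UMIs only through 14 dpp here too, 5 and 4 were lower and 0 higher. Cyp17a1 was at 1.34 CPM after 2 days of culture, 3.88 CPM after 7 days of culture, 110 CPM at 9 dpp and 52.9 CPM at 14 dpp, so the gap was of the same order as within the cells.

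Other genes of the pathway were counted by list in Leydig-like cells, beside the 12.3% of all genes lower and 5.91% higher for the 2-day pair and the 7.88% and 6.38% for the 7-day pair. The median log2 ratios of the lists for the 2-day and 7-day pairs were −0.47 and −0.12 for cholesterol supply, −0.35 and −1.11 for electron transfer, −0.36 and −0.10 for other steroid enzymes, −0.36 and 0.44 for regulators, and −0.62 and −0.66 for LH receptor and cAMP signalling, beside the −0.11 and 0.03 of all genes. Medians were also taken without genes under 50 UMIs once their highest library was left out. In the same order they were −0.48 and −0.20, −0.36 and −1.33, −0.36 and 0.12, −0.67 and 0.29, and −0.30 and −0.66. Of 12 genes of cholesterol supply, 2 were at least 2-fold lower and 2 higher for the 2-day pair, and 3 lower and 1 higher for the 7-day pair, so that 2 of 12 lower was near the share of all genes. Scarb1, the receptor that takes up cholesterol from lipoproteins, was lower in both, at 168 CPM against 631 CPM and 126 CPM against 337 CPM. Stard4, a cholesterol carrier, was also lower in both, on 10 UMIs in each culture. Of 6 genes of electron transfer, 0 were 2-fold apart for the 2-day pair and 3 were lower for the 7-day pair: Por, Fdx1 and Fdxr, which hand electrons to the steroid P450 enzymes. Fdx1 was at 837 CPM after 7 days of culture and 2316 CPM at 14 dpp. Scarb1, Fdx1 and Fdxr were also markers of the class, as were Prlr of the signalling list and Nr0b1 of the regulators. Their levels thus helped to choose the cells. Over 11 genes both signalling medians were the values of Prlr, at 132 CPM against 202 CPM and 275 CPM against 435 CPM.

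Of the other steroid enzymes, 10 of 20 had enough UMIs. In the 2-day pair 1 was lower and 1 higher, near the 12.3% and 5.91% of all genes. For the 7-day pair 3 were lower and 1 higher, beside 7.88% and 6.38%. Cyp21a1, the adrenal 21-hydroxylase, had 141 UMIs in the Leydig-like cells of 9 dpp and 0 after 2 days of culture, at least 22.4-fold lower against the floor of 3 UMIs, while the 7-day pair had 1 UMI against 20, or −3.19 (−8.56 to −0.54) on the log2 scale. The higher gene of the 2-day pair was the class marker Hsd11b1, which interconverts active and inactive glucocorticoid, at 372 CPM against 12.4 CPM. For the 7-day pair it was among the lower genes, at 5.18 CPM against 12.3 CPM, on 5 and 26 UMIs. Hsd11b1 and Cyp21a1 each reached 50 UMIs only through their highest library, and without them 0 genes were 2-fold apart for the 2-day pair and 1 was lower and 1 higher for the 7-day pair.

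Of 13 measured regulators of 15, 3 were lower and 2 higher for the 2-day pair, and 1 lower and 5 higher for the 7-day pair. The shares of all genes were 12.3% and 5.91%, and 7.88% and 6.38%, so 1 of 13 lower was at the background. Crem, a cAMP-responsive transcription factor, was lower in both, at 16.8 CPM against 50.3 CPM and 10.4 CPM against 191 CPM. Gata6 and Nr0b2 were higher in both, on 8 to 24 UMIs a library. They and Wt1 had under 50 UMIs without their highest library, and of the other 10 genes 3 were lower and 0 higher for the 2-day pair, and 1 lower and 2 higher for the 7-day pair. Of 11 measured genes of LH receptor and cAMP signalling of 15, 4 were lower in each pair and 0 higher, beside 12.3% and 7.88% of all genes lower, with Adcy3, an adenylyl cyclase, and Igf1r, the receptor of insulin-like growth factor, in both sets. Without Adcy3 and Prkar2a, which had under 50 UMIs without their highest library, 2 and 3 of 9 were lower. Igf1r was at 33.7 CPM against 124 CPM for the 2-day pair and 50.8 CPM against 124 CPM for the 7-day pair.

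The genes most like each of the 10 were ranked by Pearson r of log2(CPM + 1) over 27 units of library and cell class, which share libraries and depth. Cyp17a1 was closest to Cdhr5 (0.941), Oxtr (0.941) and Insl3 (0.939). Cyp11a1 was closest to 4930426D05Rik (0.917), Hsd3b1 (0.914) and Fdx1 (0.903). As a class marker, Fdx1 helped to make these units, so its r is no separate support. Hsd3b1 and Lhcgr were 0.941 alike, and Lhcgr was closest to Oxtr (0.966). For Hsd3b6 the closest was Klk1b21 (0.845), for Star Myo15b (0.896), for Nr5a1 Tsc22d1 (0.885), for Srd5a1 Cdk5rap2 (0.803) and for Hsd17b3 Gm48287 (0.941).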

How the data were processed

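Raw UMI counts per gene and barcode were deposited by the authors; per the file headers the counter was Cell Ranger 3.0.2, and the build was mm10 per the submitters' processing notes. Cell calling settings and the annotation are not given in the sources used here. The filter asked for 500 detected genes and a mitochondrial share of no more than 20%, and doublets called by Scrublet (scanpy 1.11.5, expected rate 6%) were removed. The 10 genes and the lists were chosen with earlier results of these data known. A cell was Leydig-like when its share of UMIs from 14 markers was at least 0.3 of the median of the top 100 cells with at least 5 markers present. Other classes needed 0.15 and 3 markers. These limits were set after the data were seen, by agreement with Leiden clusters (leidenalg 0.10.2) made without the 10 genes. UMIs were summed per library and class. Ratios have conditional binomial, levels Poisson and shares Clopper-Pearson intervals. A gene needed 50 UMIs in the 4 libraries together to be counted, with 2-fold as the limit of size. A library at 0 was set to a floor of 3 UMIs. Cells were thinned to 3000 UMIs. The calculation was tested on simulated data. Named genes were the 10, pathway genes 2-fold apart in the same direction in both pairs, and the 3 most alike genes. Por, Fdx1, Fdxr, Hsd11b1, Wt1, Prkar2a, Prlr, Nr0b1 and the other class markers named fall outside this rule and were chosen after their values were seen. Counts and medians were also made, as an alternative chosen after seeing the data, without genes under 50 UMIs once their highest library was left out. Positions are from GENCODE M21 (GRCm38). edgeR 4.0.16 gave TMM factors for an alternative. Genes of target cells are not reported here.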

Additional observations from a re-analysis of the deposited data

Results flagged for a closer look

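Genes whose log2 ratio had opposite signs in the 2-day and 7-day pairs, with both 95% counting intervals clear of 0, are given here; each pair is 1 library against 1 library, and the difference between the pairs was not tested. Over all kept cells these were Star (0.14 and −2.45), Cyp11a1 (0.76 and −0.17) and Hsd3b1 (−1.49 and 0.18). The sign of the smaller value was not kept under every alternative: Star in the 2-day pair was −0.02 with cells weighted equally, and Cyp11a1 in the 7-day pair was 0.08 with the stricter cell filter. In Leydig-like cells they were Hsd3b1 (−1.34 and 0.72), Hsd3b6 (2.88 and −5.17) and Nr5a1 (−1.43 and 0.66). In Sertoli-like cells it was Hsd17b3 (−2.26 and 0.80). In germ-like cells they were Star (0.89 and −0.77) and Cyp11a1 (0.96 and −1.55), at levels of 1.62 to 5.09 CPM. The values in Sertoli-like and germ-like cells were not recomputed under the alternatives.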

How the results depend on the processing

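No paired analysis was possible because each group was 1 library. For the same reason no library could be left out. Each ratio was recomputed under 7 alternatives over all kept cells and 12 in Leydig-like cells, the last chosen after seeing the data (cells also in the Leydig cluster). Of 233 alternative values of genes at least 2-fold apart, 232 kept their direction and 226 stayed at least 2-fold apart; over all 368 values of single genes, 360 kept their direction. The exception in direction was Hsd3b6 over all kept cells in the 2-day pair, at −0.24 with cells weighted equally, against 1.07. The other values under 2-fold were that ratio with 1 or 10 added to CPM (0.14 and 0.02), Lhcgr in the 2-day pair (−0.39) and Srd5a1 in the 7-day pair (−0.78) over all kept cells with 10 added, Hsd3b6 in Leydig-like cells in the 2-day pair with 10 added (0.85), and Nr5a1 there in the 2-day pair with cells weighted equally (−0.96). The number of genes at least 2-fold higher over all kept cells in the 2-day pair was 1; it was 0 with 1 or 10 added to CPM and with cells weighted equally, and 2 with the stricter cell filter (1000 genes, 10% mitochondrial UMIs) and at 1.5-fold. In Leydig-like cells it was 0 in place of 1 with 10 added to CPM in the 2-day pair. Without genes under 50 UMIs once their highest library was left out, chosen after seeing the data, it was 0 in the 2-day pair in both sets of cells. In the 7-day pair it was 1 in place of 0 with the stricter cell filter and with cells chosen by the UMIs of the other genes, through Hsd3b1 at 1.05 and 1.17, and 2 at 1.5-fold. With a stricter marker minimum the share of Leydig-like cells was 1.42% at 9 dpp, 0.843% after 2 days of culture, 1.62% after 7 days and 2.34% at 14 dpp. The cause of these changes was not tested. The low counts of Hsd17b3 in Leydig-like cells, and of Hsd3b6 outside 14 dpp, limit what can be said of them.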
